A study of Mus with 4 samples.

Results

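The genes described here were 8 genes of the peripheral myelin sheath, Mbp, Pmp22, Cnp, Mag, Prx, Cldn19, Ncmap and Egr2, taken by symbol from the 31253 features listed in every library. All 8 were found in each of the 4 libraries, and 31240 features remained after 13 mitochondrial genes had been removed. They were followed across the cell classes of mouse dorsal root ganglia (DRGs), the clusters of sensory neuron cell bodies beside the spinal cord.

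Single-cell RNA-seq was performed on cells dissociated from the L4 and L5 DRGs of wildtype C57BL/6J male mice. The study's methods give their age as 8 weeks for the dissociated tissue, and as a range up to 8 weeks for all experiments. One group had been taken 3 days after chronic constriction injury (CCI), a model made by placing loose ties around the left sciatic nerve. The other came from naive mice (CON), which had no operation, so that injury and surgery cannot be told apart. Each group held 2 droplet libraries. How many mice a library pooled is not given in these sources, and p-values therefore measure only a spread between libraries that may be technical. The sample labels give the cell type as neuron, whereas the libraries held all cell types of the ganglion.

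In peripheral nerve a myelinating Schwann cell wraps a single axon and compacts its membrane into myelin. Non-myelinating Schwann cells hold small axons without a sheath, and satellite glia enclose the neuron cell bodies. Mbp and Pmp22 belong to compact myelin, Cnp, Mag, Prx, Cldn19 and Ncmap to the uncompacted regions and the contacts of the sheath, and Egr2 encodes the transcription factor that drives the myelin programme. In the annotation of GRCm38, Prx lies on chromosome 7 from 27499305 to 27520041 and Mag on chromosome 7 from 30899175 to 30914922. Cldn19 (119255441 to 119262438) and Ncmap (135369576 to 135398240) lie on chromosome 4. Pmp22 (63128982 to 63159547) and Cnp (100574909 to 100591875) lie on chromosome 11, Egr2 on chromosome 10 (67534469 to 67542188) and Mbp on chromosome 18 (82475091 to 82585637).

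The libraries held 11628 and 11380 barcodes in CCI and 11067 and 3376 in CON, of which 35113 of 37451 passed the filter on cells. Median depth was 3675 and 4552 unique molecular identifiers (UMIs, counts of single captured molecules) per kept cell in CCI and 2508 and 8352 in CON, and pairs of libraries shared 12 to 31 barcodes. CON replicate 2 was the smallest and deepest library. Cells were clustered with the 8 genes left out, and clusters were named from markers that did not include them. The suffix -like marks such names.

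Myelinating Schwann cell-like cells comprised 1490 and 666 cells in CCI and 1047 and 194 cells in CON, in 2 clusters that each carried 11 of the 12 markers of the class. Scn7a glia-like cells, which carry markers of non-myelinating glia such as Scn7a, Cadm2 and Ngfr, comprised 806 and 1267 cells in CCI and 692 and 239 in CON. Satellite glia-like cells, marked by Fabp7 and Kcnj10, comprised 2231 and 2675 cells in CCI and 2489 and 952 in CON. One Scn7a glia-like cluster was led by G0s2, Ccn1 and Atf3 and had Egr2 among its 10 leading genes, with CCI replicate 2 supplying 464 of 842 cells. Among satellite glia-like clusters, 1 with Cxcl10 as its leading gene also had Jun and Fos near the top, and held 32.6% of the satellite glia-like cells of CCI replicate 2 against 14.9% to 18.8% in the other libraries. Levels below are CPM, a gene's UMIs scaled to a common total of UMIs over a class in a library. A class set against another is a description, since classes were built from the same cells. The 10 markers of Scn7a glia summed to 3403 and 3157 in CCI and 3149 and 2331 in CON in that class. In satellite glia-like cells they summed to 1992 and 2144 in CCI and 1797 and 2234 in CON, nearly as high in CON replicate 2. Satellite glia markers summed to 13291 to 31542 in Scn7a glia-like cells and to 105401 to 127665 in satellite glia-like cells.

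**Figure D1:**
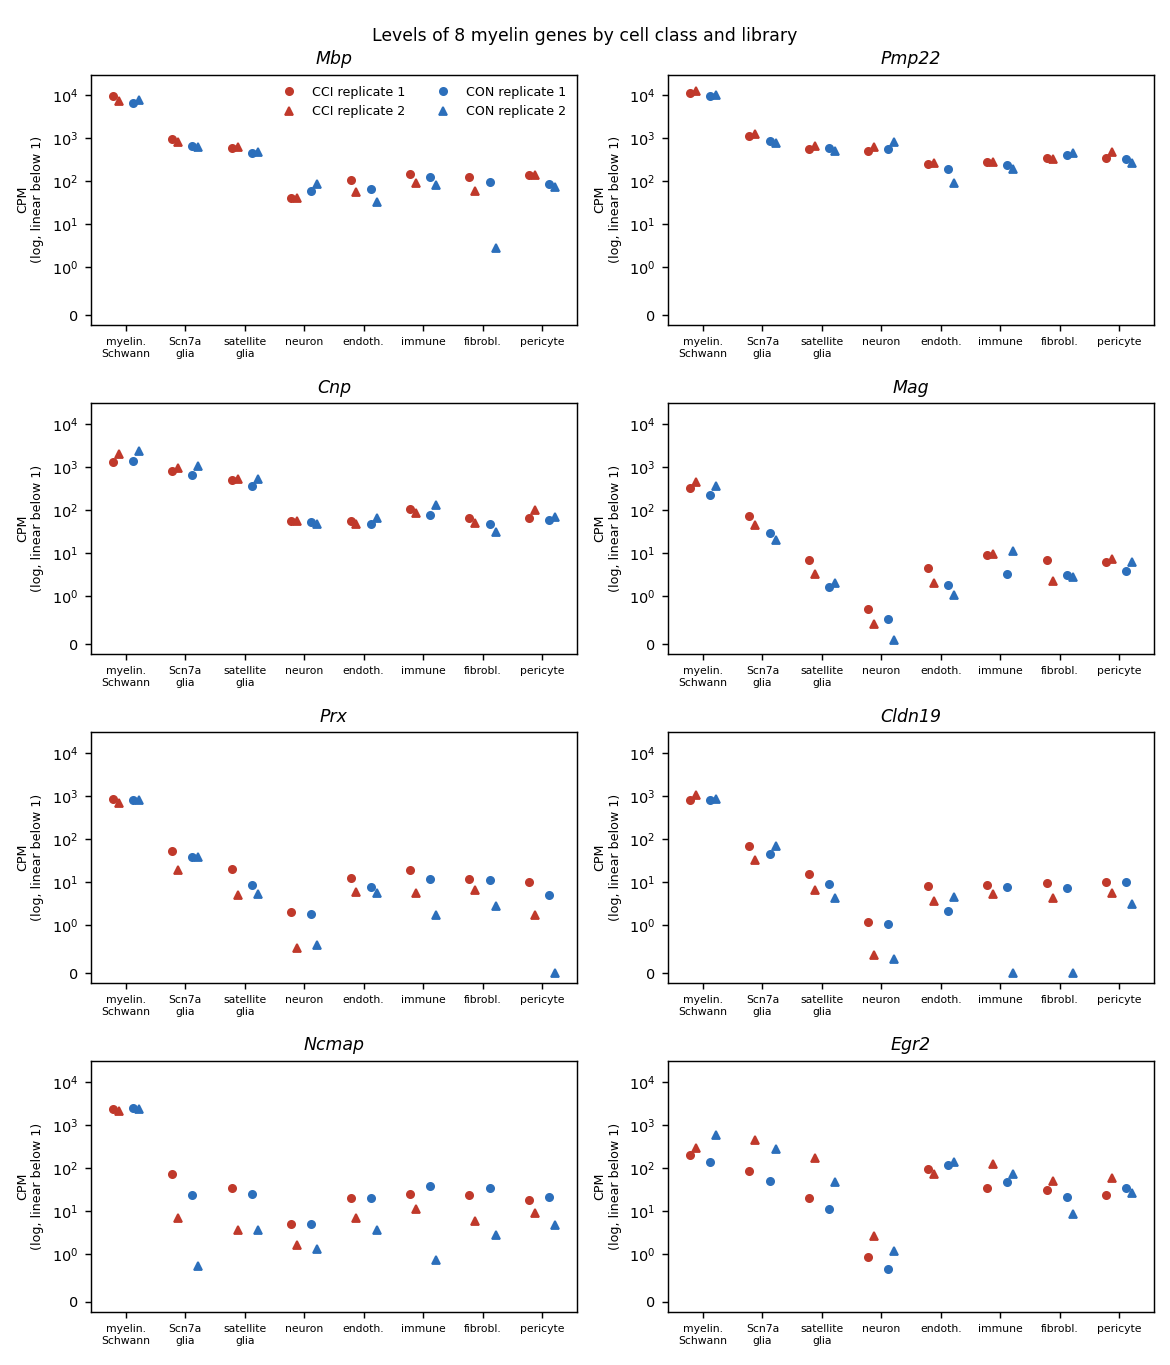
Level of each of the 8 genes (y axis, CPM, log scale that is linear below 1) in 8 cell classes (x axis), with 1 point per library, CCI in red and CON in blue. All 8 genes were highest or among the highest in myelinating Schwann cell-like cells, and Ncmap stood at 2092 to 2454 there while no other class exceeded 71.5.

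Mbp, which encodes the basic protein that holds the inner membrane faces together, stood at 9446 and 7465 CPM in the CCI libraries and at 6631 and 7845 in the CON libraries in myelinating Schwann cell-like cells. In Scn7a glia-like cells it stood at 963 and 836 in CCI and at 652 and 627 in CON. The values in satellite glia-like cells were 604 and 636 in CCI and 446 and 478 in CON. Satellite glia-like cells thus held 6.09% to 8.52% of the myelinating level of the same library, and endothelial-like cells, which should lack the gene, 0.42% to 1.12%.

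Pmp22, a tetraspan protein of compact myelin, was also found outside the glial classes. It stood at 10972 and 12569 CPM in CCI and at 9347 and 10024 in CON in myelinating Schwann cell-like cells. In neurons it stood at 506 and 634 in CCI and at 552 and 808 in CON, close to the 575 and 656 in CCI and 601 and 509 in CON of satellite glia-like cells. In neurons Pmp22 made up 81.7% to 86.1% of the UMIs of the 8 genes, against 39.9% to 47.3% in myelinating Schwann cell-like cells. Pmp22 in neurons thus did not keep the proportion to the other 7 genes that it had in myelinating cells. The share was also higher in fibroblast-like (55.5% to 90.0%) and pericyte-like cells (56.6% to 59.8%). Immune-like (38.7% to 46.2%) and endothelial-like cells (27.3% to 57.6%) overlapped the myelinating range. Mean Pmp22 was 334 CPM in CCI and 430 in CON in fibroblast-like cells, and 413 and 293 in pericyte-like cells.

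Cnp, an enzyme of cytoplasmic myelin channels, was found in all 3 glial classes. It stood at 1340 and 1984 CPM in CCI and at 1398 and 2344 in CON in myelinating Schwann cell-like cells. Scn7a glia-like cells held 46.4% to 60.0% of that level and satellite glia-like cells 22.3% to 37.0%, whereas neurons held 2.05% to 4.07%. Cnp made up 5.1% to 9.33% of the UMIs of the 8 genes in myelinating Schwann cell-like cells, 24.9% to 37.2% in Scn7a glia-like cells and 24.5% to 33.3% in satellite glia-like cells.

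Mag, an adhesion molecule of the membrane next to the axon, stood at 335 and 450 CPM in CCI and at 219 and 365 in CON in myelinating Schwann cell-like cells. In Scn7a glia-like cells it stood at 73.4 and 44.8 in CCI and at 30.1 and 20.3 in CON, which was 5.56% to 21.9% of the myelinating level. Its level in satellite glia-like cells rested on 89 and 62 UMIs in CCI and on 17 and 22 UMIs in CON, and was 0.556% to 2.09% of the myelinating level. Among classes that should lack Mag, immune-like cells held 1.49% to 3.15% and endothelial-like cells 0.287% to 1.36%. Mag in satellite glia-like cells lay below the immune-like level in all 4 libraries and above the endothelial-like level in all but CON replicate 1.

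Prx, a scaffold that links the Schwann cell membrane to dystroglycan, stood at 853 and 693 CPM in CCI and at 790 and 813 in CON in myelinating Schwann cell-like cells. Cldn19, a claudin of the tight junctions of the sheath, stood at 796 and 1036 in CCI and at 816 and 868 in CON. Ncmap, a small membrane protein of the uncompacted sheath, stood at 2340 and 2092 in CCI and at 2454 and 2297 in CON. All 3 had overlapping groups in these cells. Their levels in satellite glia-like cells were 0.658% to 2.36% (Prx), 0.489% to 1.9% (Cldn19) and 0.161% to 1.44% (Ncmap) of the myelinating level. Endothelial-like cells held 0.676% to 1.47% (Prx), 0.264% to 1.01% (Cldn19) and 0.16% to 0.859% (Ncmap), so that the levels of these genes in satellite glia-like cells lay near those of cells that should lack them. In Scn7a glia-like cells Prx (2.77% to 6.25%) and Cldn19 (3.14% to 8.68%) lay above the endothelial-like range, while Ncmap (0.0327% to 3.06%) spanned it. No UMI was counted in CON replicate 2 for Cldn19 in immune-like cells, which allows up to 2.65 CPM at 3 counts, for Cldn19 in fibroblast-like cells (up to 8.38) or for Prx in pericyte-like cells (up to 4.63).

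The genes also differed in how far a library's molecules lay in myelinating Schwann cell-like cells, which made up 13.4% and 6.28% of kept cells in CCI and 9.75% and 7.42% in CON. These cells held 88.9% to 95.8% of the Ncmap UMIs of a library, 82.9% to 88.8% of Cldn19 and 79.8% to 85.9% of Prx. They held 69.3% to 83.1% of Mag, 41.7% to 74.9% of Mbp, 26.5% to 49.6% of Pmp22, 16.1% to 31.3% of Cnp and 7.43% to 43.5% of Egr2. The share was highest for Ncmap, and the ranges of Pmp22, Cnp and Egr2 overlapped. Cells in clusters left without a name made up 27.6% and 19.6% of kept cells in CCI and 31.4% and 14.1% in CON. They held 7.95% to 11.8% of Pmp22 UMIs, 8.63% to 12.3% of Cnp and no more than 5.12% of each other gene.

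To compare shares of cells across depths, each cell was thinned to 1500 UMIs and shallower cells were left out. Mbp had at least 1 UMI in 99.5% and 95.2% of myelinating Schwann cell-like cells in CCI and in 98.6% and 95.8% in CON. The share in satellite glia-like cells was 48.8% and 59.1% in CCI and 43.1% and 49.3% in CON, and in endothelial-like cells 6.51% and 3.51% in CCI and 3.87% and 3.2% in CON. Thinning left out 98 and 42 satellite glia-like cells in CCI and 126 and 15 in CON, and 55 and 32 endothelial-like cells in CCI and 77 and 15 in CON. Before thinning, Mbp was found in 79.9% and 92.1% of satellite glia-like cells in CCI and in 71.0% and 93.6% in CON, at a median of 5175 and 6760 UMIs per cell in CCI and 3941 and 11344 in CON. The unthinned share in endothelial-like cells was 15.0% and 10.3% in CCI and 9.99% and 10.2% in CON. Their median depth was 6647 and 8106 UMIs in CCI and 4667 and 12541 in CON, above that of satellite glia-like cells in every library. Ncmap was found in 90.0% and 76.4% of myelinating Schwann cell-like cells in CCI and in 90.8% and 75.9% in CON, and in no more than 1.69% of satellite glia-like and 1.74% of endothelial-like cells. Both replicate 2 libraries were thus lower for Ncmap than both replicate 1 libraries. A myelinating Schwann cell-like cell held a median of 6 of the 8 genes in every library, a Scn7a glia-like cell 2 or 3 and a satellite glia-like cell 1 or 2.

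**Figure D2:**
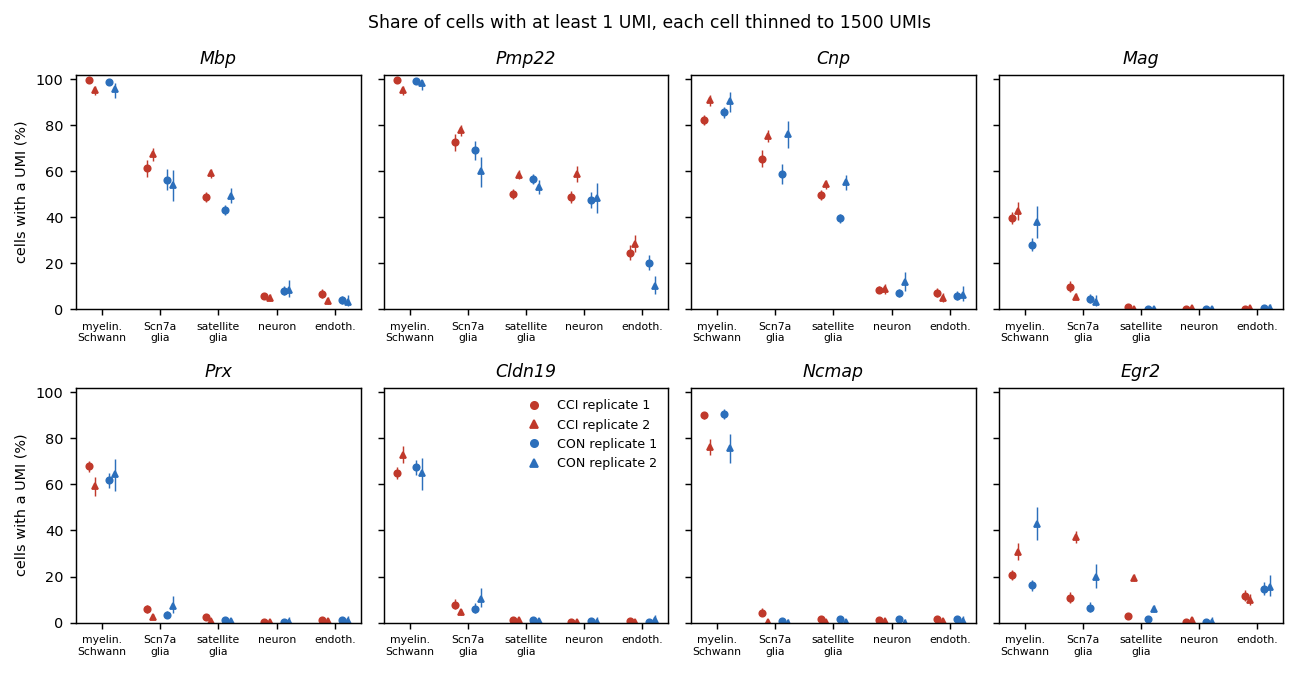
Share of cells with at least 1 UMI (y axis, percent, each cell thinned to 1500 UMIs) for 8 genes in 5 cell classes, with 1 point per library, CCI in red and CON in blue, and exact binomial 95% intervals (counting error alone). Mbp, Pmp22 and Cnp were found in many cells of all 3 glial classes, whereas Prx, Cldn19, Ncmap and Mag were largely found in myelinating Schwann cell-like cells.

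Mbp was also set against Ncmap within each library. Myelinating Schwann cell-like cells held 4.04 and 3.57 Mbp UMIs per Ncmap UMI in CCI and 2.70 and 3.42 in CON. Endothelial-like cells held 5.24 and 7.89 in CCI and 3.28 and 9.0 in CON. Satellite glia-like cells held 17.9 and 180 in CCI and 17.5 and 130 in CON. Scn7a glia-like cells held 13.5 and 121 in CCI and 27.7 in CON replicate 1, and CON replicate 2 had 834 Mbp UMIs beside a single Ncmap UMI. The ratio also varied among classes outside the glia. Neurons held 8.26 and 26.0 Mbp UMIs per Ncmap UMI in CCI and 12.2 and 68.0 in CON, and pericyte-like cells 7.42 and 15.4 in CCI and 4.24 and 15.7 in CON. Fibroblast-like cells held 5.26 and 10.4 in CCI and 2.75 and 1.0 in CON, and immune-like cells 6.07 and 8.42 in CCI and 3.24 and 93.0 in CON, where CON replicate 2 had a single Ncmap UMI in either class. The part of free RNA in these ratios was not tested.

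**Figure D3:**
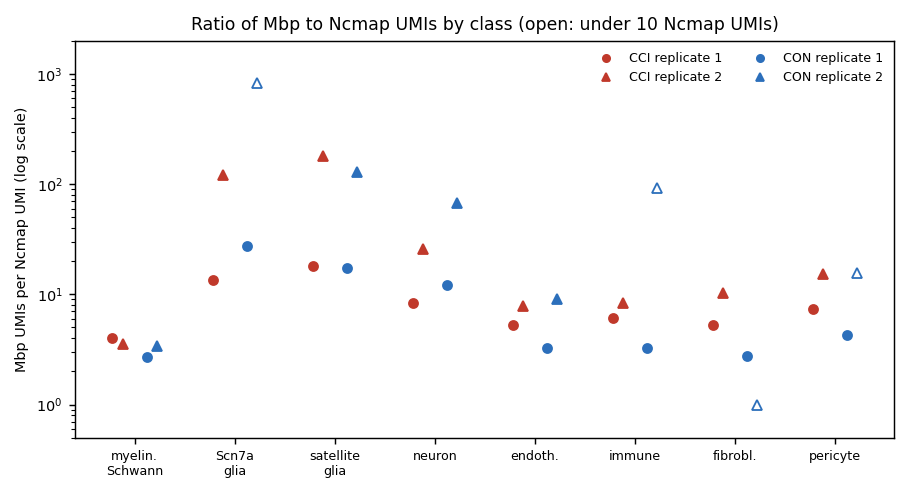
Mbp UMIs per Ncmap UMI (y axis, log scale) in 8 cell classes, with 1 point per library, CCI in red and CON in blue, and open symbols where fewer than 10 Ncmap UMIs were counted. Satellite glia-like cells lay at 17.5 to 180, against 2.70 to 4.04 in myelinating Schwann cell-like cells.

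The Ncmap UMIs of satellite glia-like cells were unevenly spread. The cluster led by Cxcl10 had 357 and 45 of them in CCI and 229 and 24 in CON, out of 429 and 67 in CCI and 259 and 40 in CON over the class. Its Ncmap level was 153 and 7.06 CPM in CCI and 124 and 11.1 in CON, whereas the cluster led by Fabp7 had 7.10 and 1.52 in CCI and 3.31 and 2.12 in CON. Mbp in the Fabp7-led cluster was 530 and 672 in CCI and 397 and 484 in CON. In the Cxcl10-led cluster Mbp was 1036 and 578 in CCI and 688 and 443 in CON, which was above the Fabp7-led cluster in both replicate 1 libraries and below it in both replicate 2 libraries.

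The comparison of CCI with CON asked whether levels of myelin genes change in each glial class 3 days after injury. None of the 8 genes passed an adjusted p of 0.05 in myelinating Schwann cell-like cells in edgeR's quasi-likelihood test with Benjamini-Hochberg adjustment over all genes. The background was 0% of 10675 genes, with 184 genes at an unadjusted p under 0.05 and 8 genes called by DESeq2. The median log2 fold change of the 8 genes was 0.07, against -0.04 over all genes tested, with 4 positive and 4 negative. Pmp22 was 0.32 (95% interval -0.30 to 0.93), Mbp 0.26 (-0.42 to 0.93), Mag 0.46 (-0.45 to 1.38) and Cldn19 0.16 (-0.53 to 0.84). Prx was -0.02 (-0.66 to 0.62), Ncmap -0.07 (-0.68 to 0.55), Cnp -0.14 (-1.10 to 0.83) and Egr2 -0.49 (-2.28 to 1.31). Only Pmp22 had both CCI libraries above both CON libraries, which 13.7% of all genes did, and none of the 8 had both below, which 15.2% did. The unadjusted intervals of Prx, Ncmap, Cldn19, Pmp22 and Mbp ended short of a 2-fold change in either direction, and those of Mag, Cnp and Egr2 did not. With 2 libraries per group, whose spread may be technical, a change of that size is not excluded for any of the 8.

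In Scn7a glia-like cells, 0 of the 8 genes passed the test (background 0% of 10651 genes, 216 at an unadjusted p under 0.05, 7 called by DESeq2). The median log2 fold change was 0.58, against 0.00 over all genes tested. Mag was 1.29 (95% interval 0.31 to 2.27), Pmp22 0.60 (-0.27 to 1.47) and Mbp 0.57 (-0.24 to 1.38), and these 3 had both CCI libraries above both CON libraries, which 14.1% of all genes did (13.1% had both below, and none of the 8). Mag missed the threshold. Without CON replicate 1, 159 genes passed in these cells, none of them among the 8. Ncmap was 1.69 with an interval of -2.11 to 5.48, resting on 149 and 28 UMIs in CCI and 32 and 1 in CON, and it was -0.78 without CCI replicate 1. Egr2 was 0.78 (-1.99 to 3.54), Cnp 0.12 (-0.92 to 1.17), Prx -0.04 (-1.34 to 1.26) and Cldn19 -0.13 (-1.29 to 1.03).

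In satellite glia-like cells, 0 of the 8 genes passed the test (background 0% of 13120 genes, 402 at an unadjusted p under 0.05, 30 called by DESeq2). All 8 fold changes were positive, with a median of 0.63 against 0.02 over all genes tested. With 1 library left out, 3 of them turned negative. Ncmap was -1.90 without CCI replicate 1 and -0.47 without CON replicate 2, Prx was -0.34 without CCI replicate 1, and Egr2 was -0.49 without CCI replicate 2. Mbp was 0.51 (95% interval 0.00 to 1.02) and Mag 1.53 (0.26 to 2.79), and only these 2 had both CCI libraries above both CON libraries, which 16.6% of all genes did (15.8% had both below, and none of the 8). Mag was 0.74 without the cluster led by Cxcl10, a setting chosen after the data had been seen, 0.91 without the cells of highest doublet score, 0.98 without CCI replicate 1 and 0.87 with clusters made without integration. Mbp was 0.51 without the cluster led by Cxcl10. Egr2 was 1.92 (-1.29 to 5.14), Prx 0.86 (-0.97 to 2.69), Cldn19 0.74 (-0.74 to 2.22), Ncmap 0.35 (-3.08 to 3.79), Cnp 0.30 (-0.36 to 0.96) and Pmp22 0.24 (-0.38 to 0.86).

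**Figure D4:**
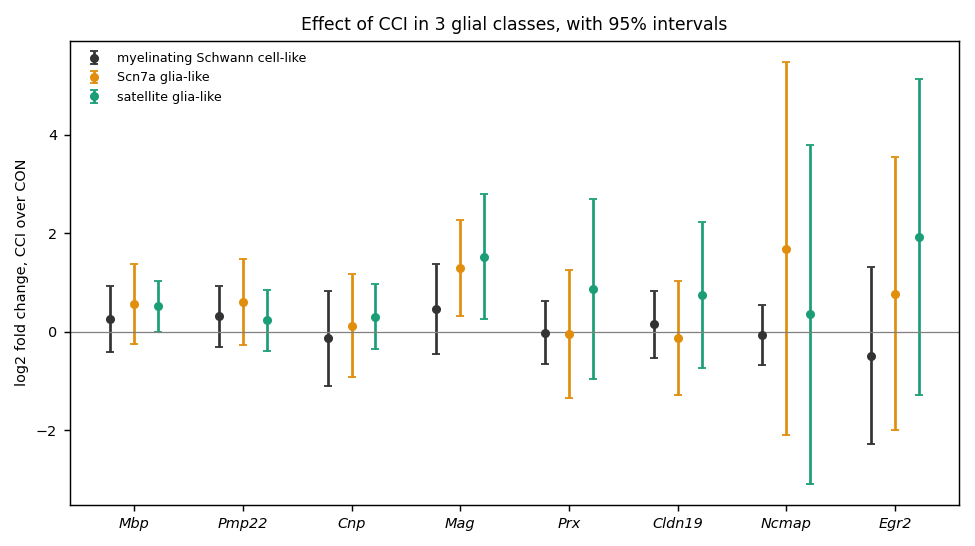
Log2 fold change of CCI over CON (y axis) for 8 genes in 3 glial classes, from edgeR, with 95% intervals (bars) over 2 CCI and 2 CON libraries. Most intervals span 0, and none of the 8 genes passed the adjusted threshold in any of the 3 classes.

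Summed markers of some other cell types also differed between the groups in the same cells. In satellite glia-like cells the summed level of the 12 markers of myelinating Schwann cells was 2238 and 2046 CPM in CCI and 1377 and 1859 in CON. The summed level of 8 fibroblast markers there was 1232 and 1270 in CCI and 771 and 1015 in CON, with at most 1 marker at 0 in a library. In myelinating Schwann cell-like cells 11 immune markers summed to 69.4 and 72.0 in CCI and to 32.3 and 27.6 in CON, with up to 3 at 0. The fibroblast markers summed there to 1979 and 1877 in CCI and to 1149 and 1408 in CON, with at most 1 at 0. The fibroblast markers in Scn7a glia-like cells summed to 2398 and 2871 in CCI and to 2008 and 2022 in CON, with up to 2 at 0. The immune markers summed there to 53.7 and 85.1 in CCI and to 44.1 and 24.1 in CON, with up to 4 at 0. The 6 proliferation markers in satellite glia-like cells summed to 18.9 and 17.8 in CCI and to 11.2 and 15.9 in CON. The remaining sums of other cell types did not separate the groups. Neuron, pericyte, endothelial and erythrocyte markers overlapped between CCI and CON in all 3 glial classes. Immune markers in satellite glia-like cells did as well, at 26.4 and 163 in CCI and 29.6 and 31.0 in CON. Markers of a glial class in another glial class overlapped too, apart from the myelinating markers given above. The part of these markers in the results was not tested. In neurons, where Mbp was 40.5 and 41.6 in CCI and 60.9 and 88.6 in CON, its log2 fold change was -0.82 (95% interval -1.31 to -0.33) with an edgeR adjusted p of 0.0646, which missed the threshold, beside 5.93% of 14780 genes called in neurons. Both CCI libraries lay below both CON libraries for Mbp, as for 24.7% of all genes in neurons. The Mbp log2 fold change was 0.91 (95% interval 0.14 to 1.69) in pericyte-like and 0.82 (-1.41 to 3.06) in fibroblast-like cells. It was 0.81 (-0.33 to 1.95) in endothelial-like and 0.28 (-0.66 to 1.22) in immune-like cells. Pmp22 was 0.97 in endothelial-like, 0.64 in pericyte-like, 0.49 in immune-like, -0.19 in fibroblast-like cells and -0.21 in neurons. Neither gene passed the threshold there, and outside neurons 0 genes did.

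The CCI effect itself was compared between classes with the library as a block. None of the 8 genes passed in the 3 comparisons, and neither did any of the 13323, 13459 and 11474 genes tested (0% each). At an unadjusted p under 0.05 there were 333 genes for myelinating Schwann cell-like against satellite glia-like cells, 519 for Scn7a glia-like against satellite glia-like cells and 451 for myelinating Schwann cell-like against Scn7a glia-like cells. With 1 library left out a group rests on a single library, so effect sizes alone are given, for the genes of the 8 that passed in such fits. For Scn7a glia-like against satellite glia-like cells the difference was -1.83 to -0.053 for Cldn19 and -1.14 to -0.33 for Egr2. It was 1.18 to 3.32 for Ncmap and -1.25 to -0.47 for Prx. For myelinating Schwann cell-like against Scn7a glia-like cells it was -1.43 to -0.10 for Mag and -5.14 to 0.48 for Ncmap. For myelinating Schwann cell-like against satellite glia-like cells it was -2.92 to -0.27 for Egr2. The effect on Mbp differed by -0.22 (95% interval -0.86 to 0.42) between myelinating Schwann cell-like and satellite glia-like cells and by 0.05 (-0.47 to 0.58) between Scn7a glia-like and satellite glia-like cells, on the log2 scale.

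Egr2, a transcription factor of the myelin programme, varied widely within each group. In myelinating Schwann cell-like cells it stood at 196 and 291 CPM in CCI and at 134 and 567 in CON. In Scn7a glia-like cells it stood at 86.4 and 436 in CCI and at 50.0 and 283 in CON, and in satellite glia-like cells at 20.2 and 174 in CCI and at 11.3 and 46.0 in CON. In each of these classes both replicate 2 libraries lay above both replicate 1 libraries. Cnp had the same order in all 3 classes and Ncmap the opposite order. Endothelial-like cells, at 94.0 and 71.3 in CCI and 120 and 134 in CON, did not show the Egr2 order, nor did fibroblast-like and pericyte-like cells. Immune-like cells did, at 35.0 and 131 in CCI and 46.5 and 73.0 in CON with edgeR's scaling. Neurons did too, on 57 and 103 Egr2 UMIs in CCI and 21 and 25 in CON, so the order was not confined to glia.

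Fos, an immediate early gene that responds to stimulation and to dissociation, had the same order of libraries in the 3 glial classes. It stood at 4585 and 7466 CPM in CCI and at 5028 and 12697 in CON in myelinating Schwann cell-like cells. The Egr2 log2 fold change in these cells was -0.49, but 0.89 without CON replicate 2 and 0.37 without the cluster that had Pou3f1 among its leading genes. The value in satellite glia-like cells was 1.92, but -0.49 without CCI replicate 2. Whether Egr2 moved with the early genes for a shared reason was not tested.

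**Figure D5:**
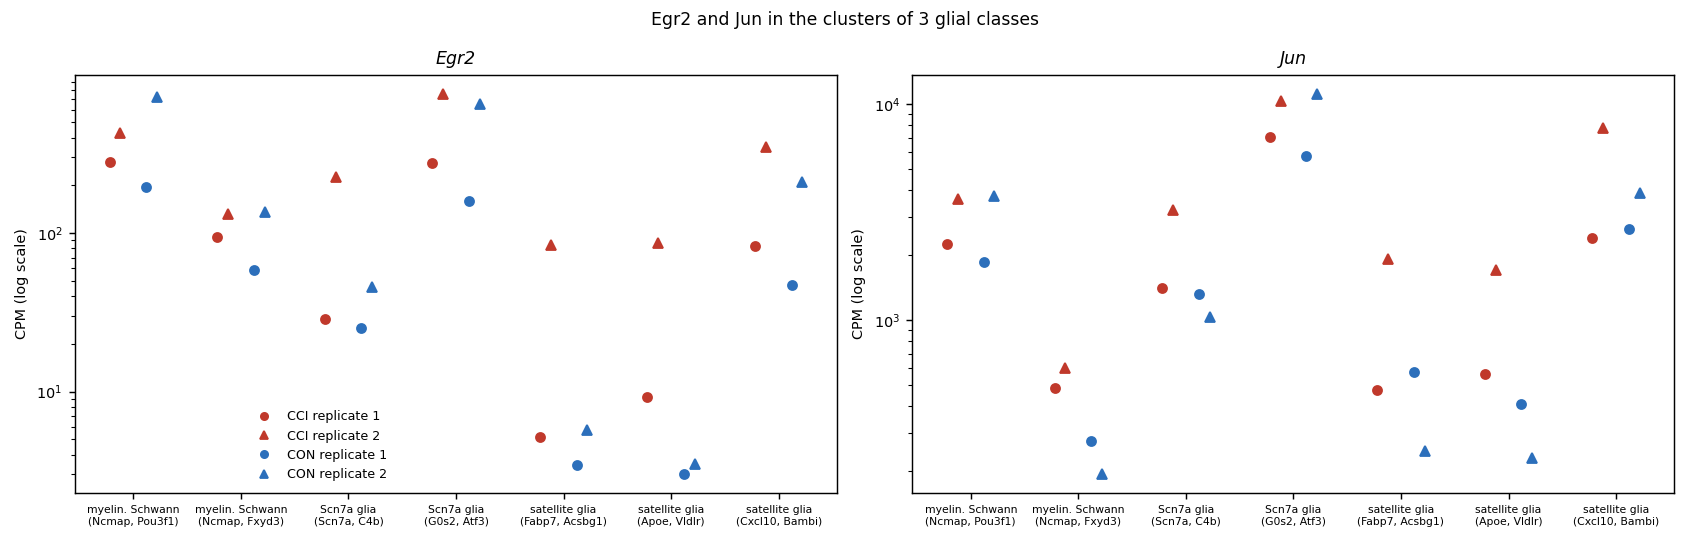
Levels of Egr2 (left) and of Jun (right) in CPM (y axes, log scale) in the 7 clusters of the 3 glial classes, named by their leading genes, with 1 point per library, CCI in red and CON in blue. Egr2 stood at 158 to 758 in the cluster led by G0s2 and in that with Pou3f1 among its leading genes. Satellite glia-like cells of CCI replicate 2, taken as a class, also lay in that range.

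Within the myelinating Schwann cell-like class Egr2 differed between the 2 clusters. The cluster with Pou3f1 among its leading genes, a gene for a factor that acts before Egr2 in the Schwann lineage, had 282 and 428 CPM of Egr2 in CCI and 195 and 716 in CON. The other cluster had 95.0 and 131 in CCI and 58.8 and 135 in CON. Mbp differed in the opposite direction to Egr2 and was lower in the first cluster in every library. It stood there at 9062 and 7224 in CCI and at 6432 and 6736 in CON. In the second cluster it stood at 9898 and 7745 in CCI and at 6880 and 11056 in CON.

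Across 32 sums of 8 classes and 4 libraries, Cldn19 (r = 0.947), Prx (0.924), Mbp (0.918) and Mag (0.912) followed the mean of the other 7 genes most closely on the log2 scale, and Egr2 least (0.593). Sums of a class share cell type and library, so these are descriptions without a test. Among the genes most like the mean of the 8 were Fa2h (r = 0.963) and Ugt8a (0.945), enzymes of myelin lipid synthesis, Fxyd3 (0.944) and Bcas1 (0.935), among 4607 genes ranked. Only genes at or above a minimum mean level in myelinating Schwann cell-like cells were ranked. Likeness to genes that are high in these cells was thus partly set by that choice. Fa2h, Ugt8a and Bcas1 were also among the markers that named the myelinating class.

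Other genes of the myelin programme were taken from lists. In myelinating Schwann cell-like cells 0 of 10 tested genes of myelin structure passed, with a median log2 fold change of 0.26, and Cd9, a tetraspanin, was 0.48 (95% interval -0.13 to 1.10). Of the lipid enzymes 0 of 12 passed, with a median of 0.08, and Scd2, a fatty acid desaturase, was -0.12 (-0.80 to 0.56). Hmgcs1, an enzyme of cholesterol synthesis, was -0.27 (-0.89 to 0.36). Of the genes of axon contact and nodes 0 of 12 passed, with a median of -0.11, and Dag1, which encodes dystroglycan, was -0.20 (-0.96 to 0.57) and Drp2, a partner of Prx, -0.61 (-1.74 to 0.52).

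Of 11 tested regulators of the Schwann lineage 0 passed, 10 were negative and the median was -0.30, against -0.04 over all genes, and Pou3f1 was -0.20 (95% interval -2.18 to 1.78) and Zeb2 -0.30 (-1.28 to 0.69). The summed level of the list was 1755 and 3279 CPM in CCI and 1745 and 4493 in CON, so the replicate 1 libraries were alike and CON replicate 2 was highest. Of 10 tested genes of the repair Schwann cell state 0 passed, with a median of -0.03, and Jun was -0.08 (-1.39 to 1.22) and Egr1 -1.06 (-2.70 to 0.58). In satellite glia-like cells the immediate early list had 14 of 14 positive values with a median of 1.43, and 0 passed. Fos was 1.70 there (95% interval -0.90 to 4.29) and Junb 1.41 (-0.50 to 3.32). The summed level of that list was 3833 and 15274 CPM in CCI and 3484 and 4685 in CON in these cells, so CCI replicate 2 stood apart from the other libraries.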

How the data were processed

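Dissociated DRG cells of 2 CCI and 2 CON libraries were profiled with a droplet method. The authors aligned reads to mm10 with Cell Ranger (5.0.1 in the matrix headers, with CASAVA 1.8 for base calls), and the deposited matrices give UMI counts, whole numbers, for each gene in each barcode. The labels describe collagenase II and the study's methods Liberase and papain, and which was used is not settled here.

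The filter kept barcodes above 500 genes whose mitochondrial share was under 20%. Each library was normalized by sctransform 0.4.2, and anchors joined the libraries in Seurat 5.3.0 under R 4.3.3 (2000 features, the 8 genes left out, 10 principal components, resolution 0.8). Clusters took a name from at least 3 markers at 1.5 times the mean of other cells, a scoring rule set after the clusters had been seen. The 8 genes, the marker lists and the gene lists were chosen with earlier results of these data known. Scrublet in scanpy 1.11.5 called 4 doublets, too few to be of use, so none were removed.

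UMI counts of a class were added up within each library, and the sums entered edgeR 4.0.16 (quasi-likelihood test, TMM factors, genes kept by filterByExpr, p adjusted by Benjamini-Hochberg with a threshold of 0.05), in classes with at least 20 cells per library. A simulation on these counts with edgeR recovered 0% of 2-fold, 10% of 4-fold and 77.5% of 16-fold changes in myelinating Schwann cell-like cells. In Scn7a glia-like cells it recovered 1.25%, 17.5% and 95%, and in satellite glia-like cells 1.25%, 43.75% and 95%. The changed genes were drawn from all genes above a low level, so these rates are not those of the 8 genes. An exact permutation test of 2 against 2 libraries cannot go below p = 0.333. Named genes were the 8, up to 4 per list past the threshold or else the 2 with the highest mean, and the 5 most like the 8, of which 1 is not reported here. Alternatives covered DESeq2 1.42.0, normalization, filters, clustering, depth and left-out libraries. Shares have exact binomial 95% intervals (scipy 1.17.1).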

Additional observations from a re-analysis of the deposited data

How the results depend on the processing

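Values here are log2 fold changes of CCI over CON, or their differences between classes. Of 504 alternative values of the 8 genes, 455 kept their direction and their side of the threshold, 39 changed sign (31 of them with 1 library left out) and 10 newly passed it. The cause was not tested, and with 2 libraries per group a missed threshold says little about stability. Where a group was left with 1 library, that library was assumed to vary like the others.

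With 1 library left out, values in myelinating Schwann cell-like cells were -0.013 to 0.32 for Cldn19, -0.45 to 0.29 for Cnp, -1.18 to 0.89 for Egr2, -0.17 to 0.044 for Ncmap and -0.19 to 0.16 for Prx, with 0 to 3 genes called. In Scn7a glia-like cells they were -0.77 to 0.28 for Cldn19, -0.18 to 0.54 for Cnp, -0.91 to 2.51 for Egr2, -0.78 to 5.61 for Ncmap and -0.94 to 0.49 for Prx, with 0 to 159 genes called. In satellite glia-like cells they were -0.49 to 3.22 for Egr2, -1.90 to 2.37 for Ncmap and -0.34 to 1.51 for Prx. Between myelinating Schwann cell-like and satellite glia-like cells they were -1.26 to 0.18 for Cldn19, -0.47 to 0.061 for Mbp, -1.72 to 1.34 for Ncmap, -0.011 to 0.24 for Pmp22 and -1.39 to 0.19 for Prx, with 1 to 64 genes and 0 to 1 of the 8 called. Between myelinating Schwann cell-like and Scn7a glia-like cells they were -0.29 to 1.04 for Cldn19, -1.84 to 0.072 for Egr2, -5.14 to 0.48 for Ncmap and -0.32 to 0.72 for Prx, with 2 to 128 genes and 0 to 2 of the 8 called. Between Scn7a glia-like and satellite glia-like cells they were -0.59 to 0.24 for Mag and -0.12 to 0.21 for Mbp, with 11 to 276 genes and 0 to 4 of the 8 called.

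DESeq2 called 8, 7 and 30 genes in myelinating Schwann cell-like, Scn7a glia-like and satellite glia-like cells. Without a filter on low counts 57, 3 and 3 genes were called there, and 68, 39 and 38 in the 3 differences between classes, with 1 of the 8 genes called in each of the differences that involve myelinating cells. Prx was then 0.0036 in myelinating Schwann cell-like and 0.0013 in Scn7a glia-like cells. Prx in myelinating Schwann cell-like cells was 0.015 with upper-quartile factors and 0.0085 with the 8 genes kept among the features, where Cldn19 in Scn7a glia-like cells was 0.040. Prx in Scn7a glia-like cells was 0.052 with clusters made without integration, which called 1 gene in satellite glia-like cells, and 0.26 with counts thinned to the shallowest library. Without the cluster with Pou3f1 among its leading genes, a setting chosen after seeing the data, Egr2 was 0.37 in myelinating Schwann cell-like cells.

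Same-numbered libraries deviated together (r = 0.66, 0.67 and 0.42 over genes in the 3 classes), but the labels do not say that a number marks a batch. The fit with the replicate number as a block called 4 genes in myelinating Schwann cell-like cells and 3 in satellite glia-like cells, none of them among the 8.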
